A study of Ovis aries with 4 samples.

Results

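The spliceosome is the machine that removes introns from pre-mRNA. It assembles stepwise on each intron from small nuclear ribonucleoproteins (snRNPs), in which small RNAs and proteins mark the splice sites and the branch site, and it is remodelled by RNA helicases before each catalytic step. N6-methyladenosine (m6A), a methyl mark on internal adenosines of RNA, is read by proteins that act on splicing, export and decay, and transcripts of splicing factors can themselves carry it.

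Peaks of m6A in the transcripts of spliceosome genes were described in ovaries of Cele black sheep at 2 ages. The members were all genes whose deposited pathway annotation holds the term Spliceosome, with the single exception of RBMX, which carries the term and was left out by the rule. This gave 57 genes among the 5261 genes with a peak in at least 1 list. The rule used no measured value beyond the presence of a peak in at least 1 list, but earlier results of these data were known when it was chosen.

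The series held 4 samples: an anti-m6A immunoprecipitate and an input without antibody from ovaries of aged ewes, 5 to 6 years old, and the same pair from ovaries of young ewes, 1 to 2 years old. No genotype or treatment was named, and whether a sample pooled several animals is not given in the sources used here. For each age, 1 list of peaks was analysed here, where each peak marks RNA recovered more in the immunoprecipitate than in the input, and its fold enrichment (a linear ratio) and adjusted p are the authors' values. With 1 list per age there was no replicate, so no difference between ages was tested, and the 95% Wilson intervals of shares reflect counting error alone. The input libraries were not analysed here and the depth of sequencing is unknown, so the level of a transcript behind a peak is unknown too, and a gene without a peak is not shown to lack methylation. In whole ovaries fewer cells of a type and less RNA per cell cannot be told apart.

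The aged list held 3656 peaks and the young list 4378. The lowest fold in either list was 1.5. Of 15 ovarian marker genes, 3 had a peak in the aged list, FSHR, INHBB and NOBOX, and 6 in the young list, among them FSHR, INHBB and STAR. None of 3 liver markers and neither of 2 blood cell markers had a peak, and of 3 skeletal muscle markers CKM, the muscle creatine kinase gene, had an aged peak.

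Aged-only genes were a smaller share, and young-only genes a larger share, of the spliceosome genes than of all genes with a peak. Of the 57, 8 (14.0%, interval 7.29 to 25.3) had a peak in the aged list only, 33 (57.9%, 45.0 to 69.8) in the young list only and 16 (28.1%, 18.1 to 40.8) in both. Over the whole series the shares were 26.9% aged-only, 41.3% young-only and 31.8% in both. Among the 2248 genes with any pathway term they were 27.3%, 41.3% and 31.4%, so having a pathway annotation did not itself move the background. The counts say in which list a gene appears, not that methylation was gained or lost.

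**Figure D1:**
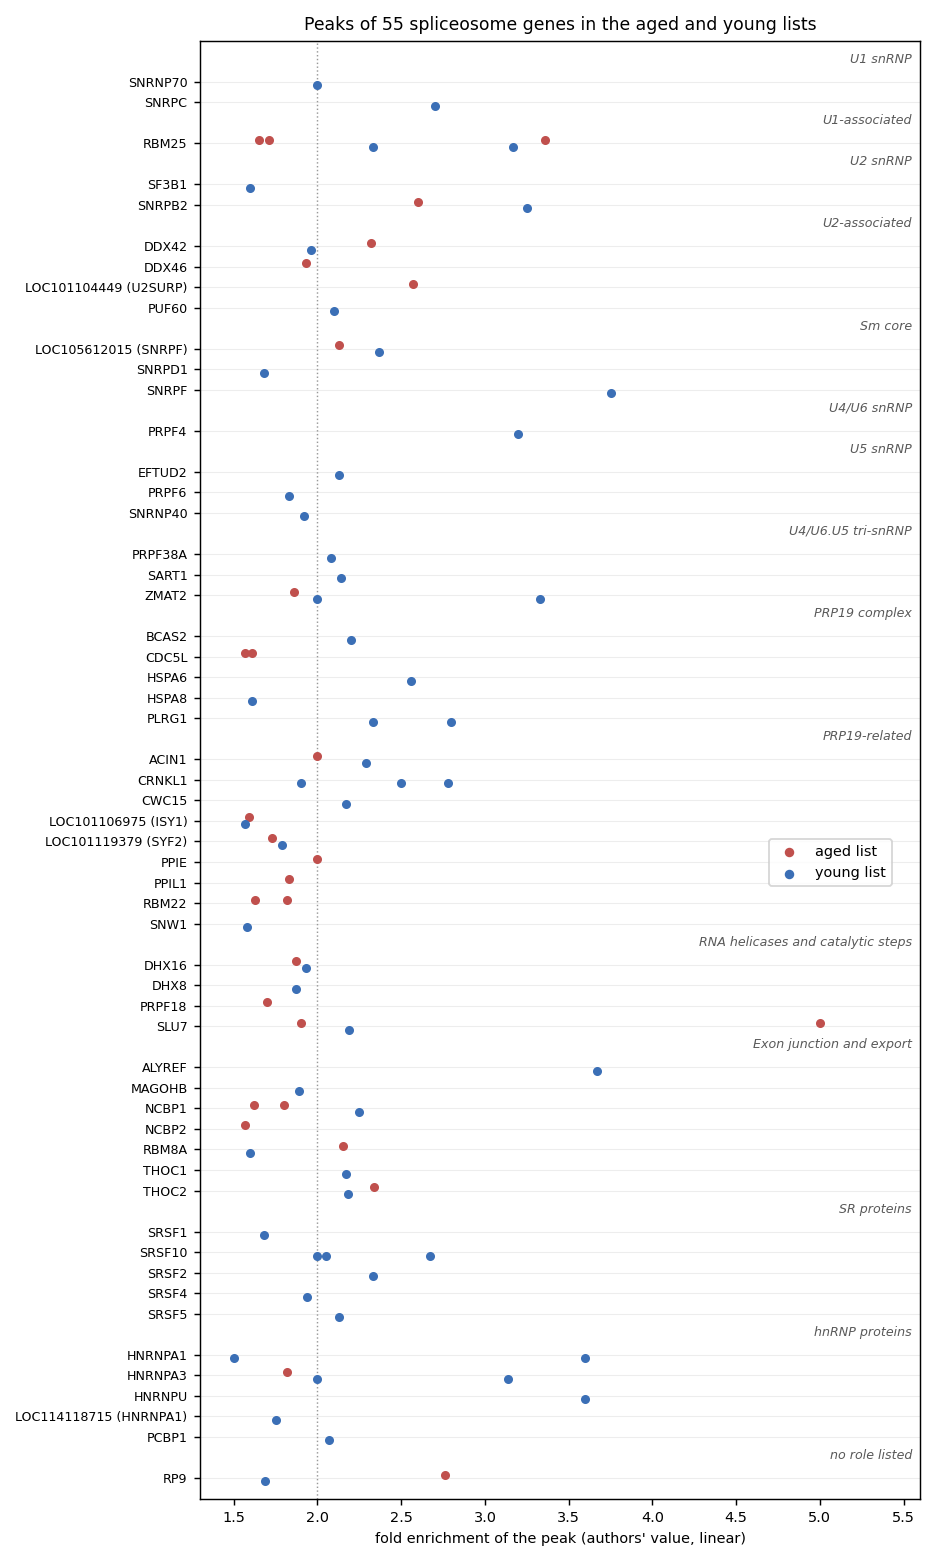
Fold enrichment (linear, x axis) of the peaks of 55 of the 57 spliceosome genes (rows, grouped by role), with aged peaks in red above young peaks in blue and a dotted line at the median of 2.00 over all peaks of both lists. Most rows hold blue points alone, 32 of 55, and the highest point is an aged peak of SLU7 at 5.00.

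Among other pathways that act on RNA, the closest balance was that of ribosome genes. Of 62 genes with the term Ribosome, 7 (11.3%) were aged-only, 42 (67.7%) young-only and 13 (21.0%) in both. Of 37 nucleocytoplasmic transport genes outside the spliceosome, 11 (29.7%) were aged-only, 13 (35.1%) young-only and 13 (35.1%) in both. Of 40 such genes of mRNA surveillance, the pathway that destroys faulty transcripts, 10 (25%) were aged-only, 16 (40.0%) young-only and 14 (35.0%) in both. The transport and surveillance pathways thus lay near the background, and the spliceosome and ribosome genes away from it. No difference between these sets was tested.

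**Figure D2:**
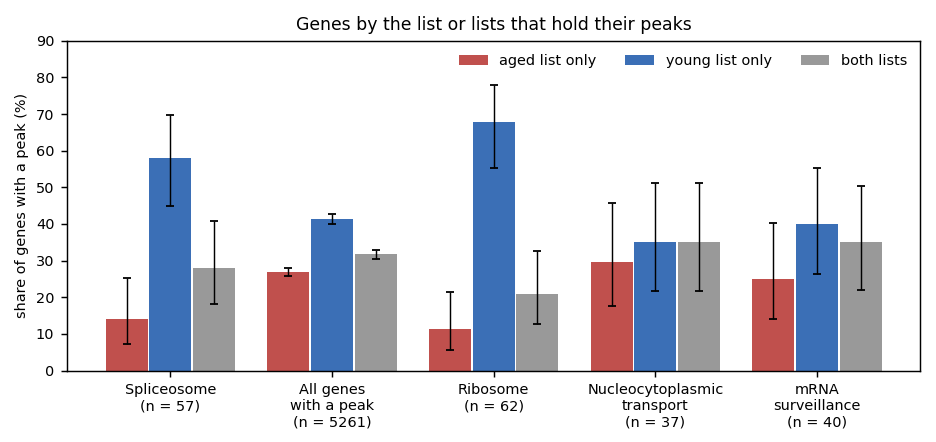
Share of genes with a peak (%, y axis) whose peaks lay in the aged list only, the young list only or both, for spliceosome genes, all genes with a peak and 3 other pathways without the spliceosome genes; bars start at 0 and error bars are 95% Wilson intervals. The young-only bar reaches 57.9% for spliceosome genes and 67.7% for ribosome genes, against 41.3% for all genes.

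The folds of the members were ordinary for their lists. In the aged list 30 peaks in 24 genes had a median fold of 1.87, against 1.88 for all aged peaks, and ranged from 1.57 to 5.00. In the young list 59 peaks in 49 genes had a median fold of 2.14, against 2.05 for all young peaks, and ranged from 1.5 to 3.75. A fold of at least 2.00, the median over both lists, was reached by 12 aged member peaks (40.0%, background 42.7%) and 40 young member peaks (67.8%, background 58.3%). Several peaks were carried by 5 members in the aged list (20.8% of the members in it) and 8 in the young list (16.3%). Of all genes in these lists, 15.1% and 12.1% carried several.

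The factors that recognise the 5' splice site came first by role. U1 snRNP pairs with that site, and both of its protein genes with a peak, SNRNP70 and SNRPC, were young-only, with folds of 2.00 and 2.70.

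RBM25, which encodes a U1-associated protein, had peaks in both lists. RBM25 carried 3 aged peaks, with folds of 3.36, 1.71 and 1.65, and 2 young peaks, with folds of 3.17 and 2.33. The strongest aged peak of RBM25, on chromosome 7 (82670478 to 82676152), overlapped no young peak, whereas its aged peak of 1.71 overlapped the young peak of 3.17.

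For the branch site, which U2 snRNP binds, SNRPB2 was the member with the highest lower fold of an overlapping pair of peaks. SNRPB2 encodes the U2 protein B''. Its aged peak had a fold of 2.60 (adjusted p = 3.16e-15) and its young peak 3.25 (adjusted p = 3.98e-35), and both were labelled exon. They lay on chromosome 13 (10391663 to 10401236 in the aged list and 10392139 to 10401286 in the young list) and shared 95% of the aged span. SF3B1, the large subunit that holds the branch site, was young-only with a fold of 1.60, above 9.11% of young peaks, although its adjusted p of 1.26e-35 was the second smallest of the members.

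Proteins that join U2 divided between the lists. The helicase gene DDX42 had peaks in both, with folds of 2.32 in the aged and 1.96 in the young list, each labelled stop codon. The helicase gene DDX46, needed for stable binding of U2, was aged-only at 1.93 (adjusted p = 0.00398). LOC101104449, deposited with the symbol U2SURP, was aged-only at 2.57 (adjusted p = 7.76e-05), the highest fold of the aged-only members. PUF60, which binds the pyrimidine-rich tract before the 3' splice site, was young-only at 2.10.

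The Sm proteins form the ring around the small nuclear RNAs, and 3 Sm genes had a peak. SNRPF had the highest young-only fold of the members, 3.75 (adjusted p = 1.35e-08), on chromosome 3 (165765940 to 165773205), and SNRPD1 was young-only at 1.68. LOC105612015, which also carries the symbol SNRPF, had 1 peak of 138 bases in each list with identical boundaries and folds of 2.13 in the aged and 2.37 in the young list. That gene is 409 bases long in the gene table and may share reads with SNRPF, so the peaks of both are uncertain. No member encoded an LSm protein of the U6 ring. LSM1, which lacks the pathway term in these files and acts in decay of mRNA, had peaks of 1.53 in the aged and 2.36 in the young list that did not overlap.

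The members of the U4/U6.U5 tri-snRNP, which brings the catalytic RNAs to the intron, were young-only but for 1. Across the whole series 41.3% of genes fell in that class, and no difference from it was tested. CD2BP2, listed for U5 but without the pathway term, had peaks in both lists, with highest folds of 2.32 in the aged and 2.12 in the young list. U4/U6 was represented by PRPF4 alone, young-only at 3.20 (adjusted p = 2.00e-34). For U5, the GTPase gene EFTUD2 had a young-only peak of 2.13, SNRNP40 of 1.92 and PRPF6, which bridges U5 with U4/U6, of 1.83. PRPF38A (2.08) and SART1 (2.14), which encode proteins of the assembled tri-snRNP or the complex it joins, were young-only too. ZMAT2 had peaks in both lists, with a fold of 1.86 in the aged list and folds of 3.33 and 2.00 in the young list. The aged peak of ZMAT2 and its young peak of 3.33 ended at the same base.

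The PRP19 complex and the proteins that gather round it activate the spliceosome. Of its core genes, CDC5L was aged-only, while PLRG1 and BCAS2 were young-only. CDC5L had aged peaks of 1.61 (adjusted p = 5.01e-04) and 1.57 (adjusted p = 0.499), so 1 of the CDC5L peaks was not significant by the authors' own adjusted value. PLRG1 had young peaks of 2.80 and 2.33, and BCAS2 of 2.20. The heat shock protein genes HSPA6 (2.56) and HSPA8 (1.61), which the pathway lists beside this complex, were young-only.

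Of 9 related genes, 3 were aged-only, 3 young-only and 3 in both. The cyclophilin genes PPIE (2.00, adjusted p = 3.16e-06) and PPIL1 (1.83, adjusted p = 0.0389) and RBM22, whose product contacts the catalytic RNA, were aged-only. RBM22 had aged peaks of 1.82 and 1.63. CRNKL1, a scaffold protein gene, had 3 young peaks, of 2.78, 2.50 and 1.90, and CWC15 (2.17) and SNW1 (1.58) had 1 each. ACIN1 had peaks in both lists, with 2.00 in the aged and 2.29 in the young list, as did LOC101106975, deposited as ISY1 (1.59 and 1.57), and LOC101119379, deposited as SYF2 (1.73 and 1.79). The 2 peaks of LOC101106975 shared only 50 bases.

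Helicases and factors of the catalytic steps were the role with the highest single fold. SLU7, which acts in the second catalytic step by choice of the 3' splice site, had aged peaks of 5.00 and 1.90 and a young peak of 2.19. The aged peak of 5.00, on chromosome 5 (69547663 to 69547811), exceeded 99.4% of aged peaks in fold, but no young peak overlapped it. Its adjusted p was only 0.0200, against 0.00479 for the aged peak of 1.90, although both had the same deposited p-value. The aged peak of 1.90 and the young peak of SLU7 overlapped over 96.0% of the aged span. DHX16, the helicase that prepares the first step, had peaks in both lists (1.87 in the aged and 1.93 in the young list). PRPF18, another factor of the second step, was aged-only at 1.70 (adjusted p = 0.00977), and DHX8, the helicase that releases the spliced mRNA, was young-only at 1.87.

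Genes of the cap-binding, exon junction and export complexes, which mark mRNA for splicing and transport, fell into every class. NCBP1, a cap-binding subunit gene, had aged peaks of 1.80 and 1.62 and a young peak of 2.25. It was the only one of the 16 genes with peaks in both lists whose aged and young peaks did not overlap, and the nearest of them were 896 bases apart. Its partner NCBP2 was aged-only at 1.57 (adjusted p = 1.51e-09). Of the exon junction genes, RBM8A had peaks in both lists (2.15 in the aged and 1.60 in the young list) and MAGOHB was young-only at 1.89. Of the THO export complex, THOC2 had overlapping peaks of 2.34 in the aged and 2.18 in the young list, both labelled exon, and THOC1 was young-only at 2.17. The export adaptor gene ALYREF was young-only at 3.67 (adjusted p = 5.75e-09), above 96.2% of young peaks, with an exon label on chromosome 11 (50502455 to 50502899).

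Among the SR and hnRNP protein genes of the pathway, HNRNPA3 was the only one with peaks in both lists and the others were young-only, as were 41.3% of all genes with a peak. SR proteins bind exonic enhancers through RNA-binding domains and recruit splicing factors through arginine and serine repeats. All 5 SR protein genes with a peak were young-only: SRSF10 with peaks of 2.67, 2.05 and 2.00, SRSF2 with 2.33, SRSF5 with 2.13, SRSF4 with 1.94 and SRSF1 with 1.68. The remaining 7 listed genes of this family, among them SRSF3, SRSF7 and TRA2B, had no peak under their names. For SRSF1 the class depended on the gene a peak was assigned to. The young peak of SRSF1, labelled 5' UTR, was overlapped over 77.4% of its span by an aged peak of 1.77 on the same strand that the authors assigned to the neighbouring gene VEZF1 with the label start codon. SRSF1 was the only member with an overlap of this kind.

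The proteins of heterogeneous nuclear ribonucleoproteins (hnRNPs) coat pre-mRNA and often oppose SR proteins. HNRNPA1 was young-only with peaks of 3.60 (adjusted p = 0.00135, the largest of the young member peaks) and 1.5, the lowest fold in the list. HNRNPU, a nuclear scaffold protein gene, was young-only at 3.60 (adjusted p = 3.16e-14). PCBP1, which binds poly(C) stretches, was young-only at 2.07. LOC114118715, deposited with the symbol HNRNPA1, was young-only at 1.75 and may share reads with HNRNPA1. HNRNPA3 had an aged peak of 1.82 and young peaks of 3.14 and 2.00, of which the stronger lay within the aged one. RP9, linked to retinitis pigmentosa in humans and not placed in a role here, had peaks in both lists, with 2.76 in the aged list (adjusted p = 1.26e-18) and 1.69 in the young list (adjusted p = 1.00e-70). The young adjusted p of RP9 was the smallest of all member peaks although its fold lay above only 18.5% of young peaks.

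**Figure D3:**
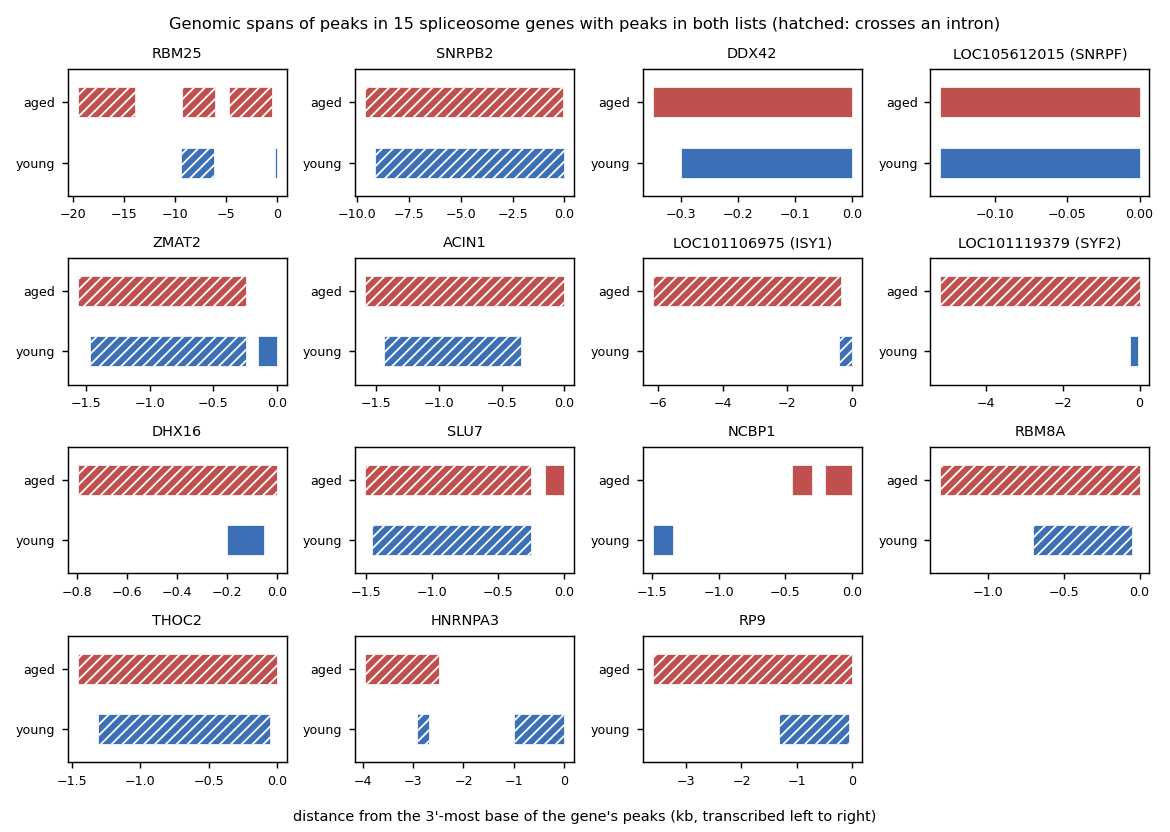
Genomic spans of the peaks of 15 of the 16 spliceosome genes with peaks in both lists, with aged peaks above young peaks and hatching where a peak crosses an intron; the x axis is the distance in kb from the 3'-most base of the gene's peaks. Spans overlap in 14 of the 15 genes, and in 11 overlapping pairs the young span lies wholly within the aged one.

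Of the 16 genes with peaks in both lists, 15 had aged and young peaks that overlapped, many of them in part only. Of the 30 aged member peaks, 15 (50%, interval 33.2 to 66.8) overlapped a young peak, which asked for 1 shared base on 1 strand, against 41.0% of all aged peaks. Of the 59 young member peaks, 16 (27.1%, 17.4 to 39.6), among them that of SRSF1, overlapped an aged peak, against 34.3% of all young peaks. Where 50% of both peaks had to be shared, 9 aged (30.0%) and 10 young (16.9%) member peaks overlapped. Within the 16 genes with peaks in both lists the share was 75.0% in each list, against 72.2% of aged and 74.2% of young peaks of all such genes. In 11 of the 15 overlapping pairs within a gene (73.3%) the young span lay wholly inside the aged span, against 38.4% of the 1530 pairs of all genes. Examples were HNRNPA3, where an aged span of 1467 bases held the young span of 244 bases, and LOC101119379, with 5201 aged and 192 young bases. These spans include introns. The widths over exons were 500 and 150 bases in HNRNPA3 and 814 and 192 in LOC101119379. Introns were crossed by 70.0% of aged member peaks, against 22.5% of all aged peaks, and the pairs were not split by crossing. Both labels were the same in 11 of the 15 pairs, 73.3% against 72.2% of all pairs.

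The share of peaks that crossed introns was higher for spliceosome genes than for the pool of all other genes. This did not hold against every small list of related genes given further below. A peak was counted as crossing an intron where its genomic span was longer than its deposited width, which then covers exons alone. This held for 21 of 30 aged member peaks (70.0%, interval 52.1 to 83.3), against 22.1% (20.8 to 23.5) of aged peaks of all other genes. In the young list it held for 25 of 59 member peaks (42.4%, 30.6 to 55.1), against 16.5% (15.5 to 17.7). The widest was an aged peak of CDC5L, which covered 548 bases of exon over a span of 16532 bases, followed by the aged peak of LOC101104449 with 650 bases over 10254. SNRPB2 had 401 bases over 9574 in the aged list and 351 over 9148 in the young list. These peaks thus joined several exons, and how the authors' method joined them is not given in the sources used here.

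**Figure D4:**
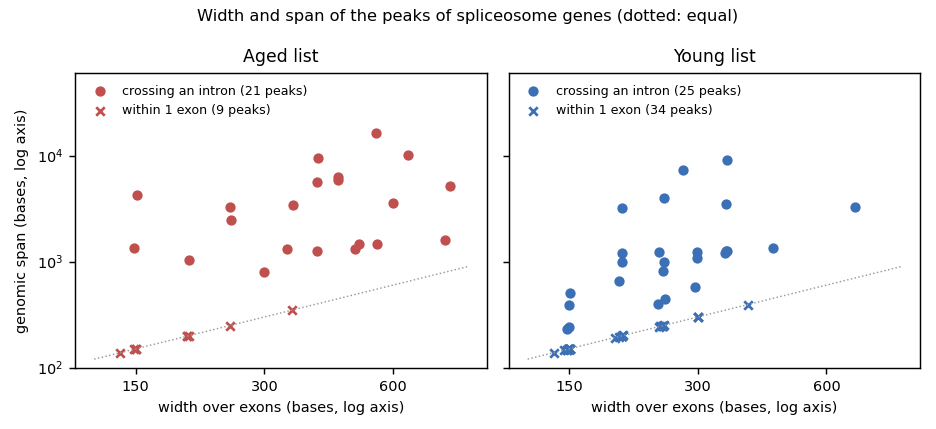
Width over exons (bases, log axis) against genomic span (bases, log axis) of the 30 aged and 59 young peaks of spliceosome genes; circles are peaks that cross an intron, crosses are peaks within 1 exon, and the dotted line marks equal values. Of the aged peaks 21 lie above the line, of the young peaks 25.

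The length of the genes was set beside the crossing. Spliceosome genes were short, with a median length of 14.7 kb in the gene table, against 28.1 kb for all genes with a peak. By class, the aged-only members had a median of 48.9 kb, the young-only ones 13.3 kb and those in both lists 14.2 kb, against 32.7, 23.1 and 30.7 kb for all genes of these classes. Among genes of at most 14.7 kb, introns were crossed by 69.2% of 13 aged member peaks and by 18.2% of aged peaks of other genes. The young shares were 50% of 32 member peaks and 17.8%. Among longer genes the aged shares were 70.6% of 17 member peaks and 23.4%, and the young shares 33.3% of 27 and 15.9%. The members' share thus lay above that of other genes at either length in both lists. The aged shares were 51.7% of 29 peaks in nucleocytoplasmic transport, 48.4% of 31 in mRNA surveillance and 28.6% of 21 in ribosome genes. The young shares of these pathways were 25.8% of 31, 25% of 36 and 35.1% of 57 peaks, so other RNA pathways also lay above the series as a whole. Setting these groups by gene length was chosen after the crossing was seen.

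Of the deposited labels, exon was carried by a larger share of member peaks than of all peaks. Of aged member peaks 10 (33.3%, interval 19.2 to 51.2) were labelled exon, against 15.3% of all aged peaks, and of young member peaks 17 (28.8%, 18.8 to 41.4), against 9.30% of all young peaks. All 10 aged and all 17 young member peaks with that label crossed an intron. Of all exon-labelled peaks, 340 of 559 aged and 283 of 407 young ones did. The label 3' UTR was carried by 17 aged member peaks (56.7%, interval 39.2 to 72.6) and 23 young ones (39.0%, 27.6 to 51.7). Of all peaks 66.4% and 47.3% carried it, which lay within these intervals. The label stop codon was carried by 2 aged member peaks, of DDX42 and DHX16 (6.67%, 1.85 to 21.3), and by 18 young ones (30.5%, 20.3 to 43.1). Of all peaks 15.3% and 41.3% carried it, again within the intervals. In the aged list this label depended on the strand. Both aged member peaks that carried it were among the 17 on the plus strand (11.8%) and none among the 13 on the minus strand, against 27.5% of 1874 plus-strand and 2.58% of 1782 minus-strand peaks of all genes. In the young list it was carried by 9 of 35 (25.7%) and 9 of 24 (37.5%) member peaks on the plus and minus strands, against 43.1% and 39.0% of all peaks. Its aged share thus cannot be set against the young one without regard to strand. Of the 18 young member peaks labelled stop codon, 16 lay in young-only genes, among them SF3B1, PRPF4, BCAS2, SNRPC and PCBP1. Of all young peaks with this label, 1085 of 1806 lay in young-only genes. The label was carried by 41.0% of the peaks of young-only members, against 46.0% of the peaks of all young-only genes.

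**Figure D5:**
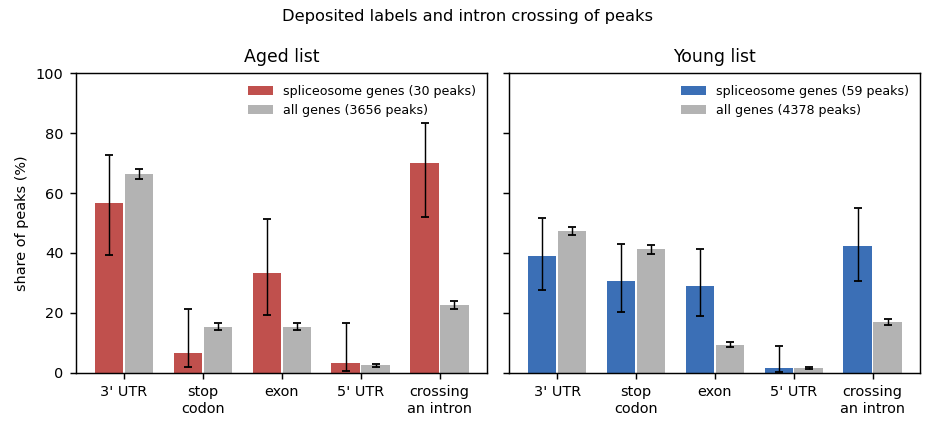
Share of peaks (%, y axis from 0) with each deposited label, and share crossing an intron, for spliceosome genes (coloured) beside all genes (grey) in the aged list (left) and the young list (right); error bars are 95% Wilson intervals. Exon labels reach 33.3% and 28.8% of member peaks, and intron crossing 70.0% and 42.4%.

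As a share of gene length, member peaks were centred further from the 3' end than peaks in general. Distance in bases was not compared, and members were shorter, with a median of 14.7 kb against 28.1 kb. Centres were taken over spans with introns included. Introns were crossed by 70.0% of aged and 42.4% of young member peaks, against 22.5% and 16.9% of all peaks. The centre of the median member peak lay 82.6% of the way from the 5' to the 3' end of the gene in the aged list and 89.4% in the young list, against 96.3% and 97.5% for all genes. In the aged list 1 of 30 member peaks (3.33%), in RBM8A, was centred in the 5' 50% of the gene, against 7.18% for all genes. In the young list 4 of 59 (6.78%) were, in HNRNPA1, HNRNPU, RBM8A and SRSF5, against 6.13% for all genes. For SRSF5 the label was stop codon and the centre lay 13.8% along the gene of the table. For HNRNPU the label was 3' UTR and the centre lay 41.6% along, so label and position differ in both. The stop codon label at the last base of the gene was held by 2 aged and 11 young member peaks. Peaks that reached this base made up 6.67% of aged member peaks (interval 1.85 to 21.3) and 18.6% of young ones (10.7 to 30.4). Their shares of the whole lists were higher, 9.05% and 29.2%, but lay within these intervals.

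Of 147 spliceosome genes listed by role, 62 had a peak under their name or deposited symbol and 85 had none, of which 6 were not found by symbol in the gene table either. Named genes without a peak included the U5 scaffold PRPF8 and helicase SNRNP200, the 3' splice site factors U2AF1 and U2AF2, SF3B2, SF3B3, PRPF19 and the exon junction helicase EIF4A3. Another 8 listed genes had a peak but lacked the pathway term in these files. Of these, LUC7L3 (2.12 in the aged and 3.00 in the young list) and CD2BP2 (2.32 and 2.12) had overlapping peaks in both lists, and LSM1 had peaks in both. HSPA2 (1.76), BUD13 (1.80), CWC22 (1.67) and CWC27 (1.68) were aged-only, and CWC25 (1.80) was young-only. Of these 8, 4 were aged-only and 1 young-only, against 26.9% and 41.3% of all genes with a peak. Of the 57 members 14.0% were aged-only and 57.9% young-only, so which genes carry the term bears on the counts. No difference between the 8 genes and the members or all genes was tested.

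Other genes that act with the spliceosome were counted in small lists. Of 7 genes for snRNP assembly with a peak, 2 were aged-only, none was young-only and 5 were in both lists, among them GEMIN6 (2.38 in the aged and 2.86 in the young list), GEMIN7 (2.58 and 1.81) and SNUPN (2.57 and 1.89). TGS1, which forms the cap of the small nuclear RNAs, was aged-only at 2.62. Of 7 genes of the minor spliceosome, which removes a rare class of introns, 2 were aged-only, 2 young-only and 3 in both. ZCRB1 (3.50 in the aged and 2.00 in the young list), ARMC7 (2.79 and 2.25) and ZRSR2 (2.44 and 2.28) were in both, and SNRNP35 was young-only at 2.68.

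Of 13 genes for SR protein kinases and nuclear speckles, the storage sites of splicing factors, 2 were aged-only, 6 young-only and 5 in both. NSRP1 had highest folds of 4.40 in the aged and 3.60 in the young list, and SON, a speckle scaffold gene, 2.05 and 2.33. CLK1, a kinase gene that acts on SR proteins, was young-only at 3.67, and the speckle protein gene SRRM2 at 2.62. Another 14 splicing regulators had a peak, of which 3 were aged-only, 5 young-only and 6 in both lists. RBFOX3 was aged-only at 4.00, and MBNL1 (2.25 in the aged and 3.00 in the young list), SFPQ (1.54 and 3.17) and MATR3 (2.05 and 1.96) were in both. No difference between these lists and the members was tested.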

How the data were processed

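Ovarian RNA of 1 immunoprecipitate and 1 input per age was measured, and 1 peak list per age was used. Samples were grouped by age and antibody in their titles, which number the aged sample replicate 2 and the young one replicate 1. Per the labels' protocols, libraries came from a stranded total RNA kit on an Illumina NovaSeq. The submitters' processing notes name ChIPseeker and DESeq2 without a role; the aligner, peak caller and build are unknown (not given in the sources used here). Per the file headers, the authors give each peak a fold enrichment (a linear ratio), p-values raw and adjusted, and their log10, treated as a score. Starts were shifted to count from 1, and positions are as deposited. Chromosome numbers, gene lengths and gene ends came from a table of assembly ARS-UI_Ramb_v3.0 by gene identifier (99.5% of genes); 100% of member peaks lay within these ends. No genome sequence was used.

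Members, lists and roles were chosen with earlier results of these data known. Of the members 55 are named, and the other 2 are counted but not reported here by name; the remaining lists give up to 4 genes by fold. Splits by gene length, position along the gene, intron crossing and the plus strand were chosen after seeing the data. Aged and young peaks were matched when they shared 1 base or more on 1 strand, introns included; this code was tested on simulated peaks. With 1 list per age no test was run. Tables were made with pandas 2.3.3 and numpy 2.4.6 in Python 3.11.15, intervals with scipy 1.17.1 and plots with matplotlib 3.10.9. Alternatives were a fold of at least 2.00, adjusted p-values up to 0.01, the young list cut to the aged one's length by the authors' p-value, exon and UTR labels only, no LOC genes, peaks within 1 exon, 1 peak per gene, overlap of 50% of both peaks, and the plus strand.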

Additional observations from a re-analysis of the deposited data

How the results depend on the processing

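No paired analysis was possible because each age has 1 list and the ages share no replicate number, and for the same reason no replicate could be left out. In each of the 7 other settings run on gene classes, the share of aged-only genes was lower, and that of young-only genes higher, among spliceosome genes than among all genes. The young-only shares of members and of all genes were closest with peaks of a fold of at least 2.00 (67.6% and 54.7%) and furthest apart with peaks within 1 exon (80.0% and 44.6%). Counts moved by over 1.5 times as follows. With folds of at least 2.00, 5 genes were aged-only and 7 in both lists. With peaks within 1 exon, 4 were aged-only and 3 in both. With exon and UTR labels only, 20 were young-only. On the plus strand alone, chosen after seeing the data, 4 were aged-only, 19 young-only and 10 in both, of 33 genes. Of aged member peaks, 22.2% overlapped a young peak among those within 1 exon and 30.0% with 50% of both peaks. Of young member peaks, 12.5% overlapped an aged one with folds of at least 2.00, 8.82% within 1 exon and 16.9% with 50% of both. Median folds and label shares stayed within their intervals in the 5 settings tried on them. An adjusted p of at most 0.01 removed 3 aged and no young member peaks. It removed the aged SLU7 peak of 5.00 and kept that of 1.90, which had the same deposited p-value. Shares rest on 30 aged and 59 young peaks and depth is unknown.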

Other observations

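In some genes several peaks carried the same deposited p-value at different folds. In the aged list this held for 3 of the 5 spliceosome genes with several peaks, NCBP1, RBM25 and SLU7, and in the young list for 1 of 8, ZMAT2. The 3 aged peaks of RBM25 all had a deposited log10 p of -11.3 at folds of 3.36, 1.71 and 1.65, and the aged peaks of SLU7 both had -2.83 at folds of 5.00 and 1.90. Over all genes with several peaks it held for 158 of 465 (34.0%) in the aged list and 50 of 466 (10.7%) in the young list. In those genes the shared p-values are not independent values of single peaks. The authors' adjusted p did not always follow their raw p-value. The aged peaks of SLU7 had adjusted values of 0.0200 and 0.00479 at the same raw value of 0.00148. In the aged list PRPF18 had a smaller raw value than DDX46 (6.92e-04 and 0.00123) but a larger adjusted one (0.00977 and 0.00398).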
